A study of Mus musculus with 4 samples.

Results

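Blood vessels are built and kept by ligands of the vascular endothelial growth factor (VEGF) and angiopoietin families, which are read by receptor tyrosine kinases of endothelial cells. The genes described here are the 10 of these families named Vegfa, Vegfc, Kdr, Flt1, Flt4, Nrp1, Tek, Tie1, Angpt1 and Angpt2, of 32285 genes in the deposited count tables, and each was found by its symbol in every table. The data are single-cell RNA profiles of hearts from E10.5 C57BL/6J mouse embryos, in which each captured mRNA molecule carries a unique molecular identifier (UMI), so that a value is a count of molecules. There were 2 wild-type libraries (Wt1 and Wt2) and 2 libraries of embryos homozygous for the I383V variant of Cyp51, the sterol demethylase of cholesterol synthesis (Ho1 and Ho2). The labels give CRISPR/Cas9 as the treatment of all 4 samples, the wild-type ones included. The hearts were dissociated with collagenase and red blood cells were lysed. Neither the number of hearts in a library nor the litters are given, so a p-value here measures the spread between these libraries, which may be technical in part.

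VEGF-A, made from Vegfa, drives the growth of endothelial cells mainly through KDR (VEGFR2), while FLT1 (VEGFR1) binds the same ligand tightly and, in its soluble form, holds it away from KDR. FLT4 (VEGFR3) is the receptor of VEGF-C and is best known from lymphatic vessels, and NRP1 is a co-receptor that binds both VEGF and semaphorins. Angiopoietin 1 activates the receptor TEK (TIE2) and steadies vessels, angiopoietin 2 opposes or replaces it depending on context, and TIE1 is a relative of TEK with no firmly established ligand of its own that works together with it. In the embryonic heart the endocardium lines the chambers, part of it turns into the mesenchyme of the cushions, and loss of Angpt1 or Tek in mice is known to impair the trabeculae of the ventricle.

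Once shallow, mitochondria-rich and doublet barcodes were set aside, 8908, 7153, 6979 and 6126 cells were analysed (in the order Wt1, Wt2, Ho1 and Ho2), with median depths of 10561, 14215, 15654 and 15831.5 UMIs per cell. Cells were placed in gates by 1 marker gene each. A cell over the limits of more than 1 of Cdh5, Tnnt2 and Upk3b entered no gate, and the Hapln1 and Crabp1 gates took only cells under the limits of the other 4 genes, so that a Cdh5-gate cell may also carry Hapln1. The endothelial gate (Cdh5, at least 2 UMIs) held 1015, 1562, 1663 and 952 cells of Wt1, Wt2, Ho1 and Ho2. In the same order, the cardiomyocyte gate (Tnnt2) held 1655, 2558, 3331 and 2346 cells, the cushion gate (Hapln1) 634, 767, 922 and 506, and the epicardial gate (Upk3b) 150, 197, 135 and 228. The Crabp1 gate, for mesenchyme, held 1661, 182, 20 and 142 cells, so that its values in Ho1 rest on very few. UMIs were summed over the cells of a gate in each library, and levels are given as CPM, counts of a gene scaled to the same total of UMIs in every sum.

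The gates were checked against markers that did not define them. The sum of 7 endothelial markers, of which Egfl7 was the most abundant, was 1829, 1932, 1606 and 1946 CPM in the Cdh5 gate and 46.8, 50.05, 48.6 and 46.1 CPM in the Tnnt2 gate. The sum of 7 cardiomyocyte markers lay between 47079 and 48894 CPM in the Tnnt2 gate, but in the Cdh5 gate it was 216, 327, 762 and 255 CPM, highest in Ho1. The Hapln1 gate, with 2137 to 2373 CPM of 6 cushion markers, also held 376 to 457 CPM of the endothelial markers, and the Upk3b gate, with 1198 to 1470 CPM of 5 epicardial markers, held 2348 to 4028 CPM of the cardiomyocyte markers. In the Crabp1 gate the 5 epithelial markers reached 164 to 564 CPM, so it is called here by its gene.

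Ho1 stood apart from the other libraries. Ho1 had 28864 UMIs of the X-linked transcript Xist, where Wt1, Wt2 and Ho2 had 5, 4 and 2, and the Y-linked genes of the list were at 0 in Ho1 and between 8808 and 9909 UMIs elsewhere, so the only female-like library is a mutant one. The embryonic globin Hbb-y led a sum of blood genes of 416 CPM in the Cdh5 gate of Ho1, against 77.8 to 114 CPM in the others. The libraries shared between 9 and 28 cell barcodes, at most 0.401% of the smaller library of a pair.

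Sequences upstream of 3 of the receptor genes are shown because Flt1 and Tek were each other's nearest gene in level over gates and libraries, as given further on, and Kdr is the receptor with the highest level. They are the 250 bases before the RefSeq gene start on GRCm38.p6, written 5′ to 3′ on the gene's strand, with GGAA and its reverse complement TTCC, the core bound by ETS factors, in capitals. Kdr lies on chr5:75978456-75978705 (minus strand; the annotation used for positions starts the gene 3 bases inside it), Flt1 on chr5:147726012-147726261 (minus strand) and Tek on chr4:94739039-94739288 (plus strand).
Kdr: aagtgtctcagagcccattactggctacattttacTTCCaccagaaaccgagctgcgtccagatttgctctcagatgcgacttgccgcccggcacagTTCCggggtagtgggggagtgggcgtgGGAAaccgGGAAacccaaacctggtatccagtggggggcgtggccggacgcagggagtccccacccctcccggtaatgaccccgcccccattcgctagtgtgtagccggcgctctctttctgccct
Flt1: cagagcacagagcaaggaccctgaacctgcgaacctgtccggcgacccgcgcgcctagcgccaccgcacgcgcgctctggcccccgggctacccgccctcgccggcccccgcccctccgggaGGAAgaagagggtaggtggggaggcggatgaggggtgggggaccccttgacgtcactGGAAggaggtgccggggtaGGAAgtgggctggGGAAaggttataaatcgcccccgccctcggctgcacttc
Tek: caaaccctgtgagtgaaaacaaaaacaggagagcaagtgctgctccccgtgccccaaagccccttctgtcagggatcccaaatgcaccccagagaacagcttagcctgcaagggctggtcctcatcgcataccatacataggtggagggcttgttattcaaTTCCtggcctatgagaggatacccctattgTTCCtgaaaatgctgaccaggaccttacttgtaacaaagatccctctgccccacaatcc

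The core was found 4 times in the Kdr window, 4 times in that of Flt1 and 2 times in that of Tek, on either strand. Of 32851 windows of this length, 93.4% held it at least once, with a median of 3. ACGTG, the core of the hypoxia response element, was searched on both strands, is absent from the 3 windows and stood in 16.6% of all windows. Windows were matched for 8 of the 10 genes, and none was read for Angpt1 or Angpt2.

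Of the ligands, Vegfa and Angpt1 were higher in cardiomyocytes than in endothelium, and Vegfc was lower. Vegfa was at 34.5, 35.7, 41.8 and 46.3 CPM in the Tnnt2 gate of Wt1, Wt2, Ho1 and Ho2 (mean 39.6 ± 5.50, SD, n = 4). It was at 35.2, 31.1, 36.7 and 38.3 CPM in the Upk3b gate and at 11.6, 12.3, 13.1 and 16.2 CPM in the Cdh5 gate. Every cardiomyocyte and epicardial value thus exceeded every endothelial one. The fitted log2 difference between the Cdh5 and Tnnt2 gates was -1.75 ± 0.10 (SE; edgeR, adjusted p = 1.62e-12), and between the Cdh5 and Upk3b gates it was -1.39 ± 0.12 (adjusted p = 7.55e-09). Vegfa in the Hapln1 gate, at 15.3, 13.8, 16.1 and 16.4 CPM, was above the Cdh5 gate in each library, though by little in Ho2. The difference was not detected by the test (log2 difference -0.11, 95% confidence interval -0.35 to 0.14, edgeR adjusted p = 0.493). On average 57.8% ± 16.2 (SD, n = 4) of all Vegfa UMIs were in Tnnt2-gate cells, which held 38.2% of all UMIs. Thinned to 2000 UMIs, 7.44% ± 1.12 (SD, n = 4) of Tnnt2-gate cells had a Vegfa UMI, and no gate lacked the gene.

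Angpt1, the agonist of TEK, was the most restricted ligand. It was at 68.4, 59.6, 62.7 and 65.2 CPM in the Tnnt2 gate (mean 64.0 ± 3.74, SD, n = 4), where 87.0% ± 7.76 (SD, n = 4) of its UMIs lay. In the Cdh5 gate it was at 0.529, 0.993, 1.54 and 0.743 CPM, a log2 difference of -6.13 ± 0.26 (SE; edgeR, adjusted p = 2.74e-14). The groups of values did not approach each other. When each cell was thinned to 2000 UMIs, 10.4% ± 0.570 of Tnnt2-gate cells and 0.154% ± 0.201 of Cdh5-gate cells (SD, n = 4) had an Angpt1 UMI. Unthinned cells, with medians of 12031 to 18054.5 UMIs in the Tnnt2 gate and 13646 to 16901 in the Cdh5 gate, gave 39.9% and 1.59%. In the Cdh5 gate the cardiomyocyte markers, like Angpt1, were highest in Ho1, and the part of background in the endothelial share was not tested. Angpt1 was also low in the Hapln1 gate, at 1.49 to 3.87 CPM, and in the Upk3b gate, at 2.17 to 5.54 CPM. In the Crabp1 gate it ranged from 5.67 CPM in Wt1 to 29.5 CPM in Wt2, and 0 UMIs in the 20 cells of Ho1 allow up to 14.2 CPM by counting error alone.

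Vegfc, the ligand of FLT4, had another distribution. It was at 22.1, 23.9, 19.1 and 27.8 CPM in the Cdh5 gate and at 29.4, 30.8, 22.2 and 30.4 CPM in the Hapln1 gate. These values overlapped. Within each library the Hapln1 gate was higher, but the difference was not called (log2 difference -0.17 ± 0.14, SE, edgeR, adjusted p = 0.363). The Tnnt2 gate, at 9.54, 9.55, 5.56 and 10.4 CPM, lay below both, with a log2 difference of 1.27 ± 0.14 between the Cdh5 and Tnnt2 gates (edgeR, adjusted p = 8.36e-08). Cells in no gate held 31.9% of Vegfc UMIs, from 17.8% to 40.5% over the libraries, and 23.0% of all UMIs. The Cdh5 gate held 28.9% of Vegfc UMIs and 21.4% of all UMIs. Angpt2, the context-dependent ligand of TEK, was low throughout. In the Cdh5 gate it was at 1.26, 1.62, 1.21 and 1.83 CPM. It was at 2.37, 2.38, 1.65 and 2.61 CPM in the Tnnt2 gate, which was higher by the test (log2 difference -0.75 ± 0.18, edgeR, adjusted p = 0.00100). Its 3.62 to 9.50 CPM in the Crabp1 gate rest on 60, 16, 2 and 9 UMIs. Cells in no gate held 41.2% of Angpt2 UMIs, from 16.9% to 58.4% over the libraries.

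**Figure D1:**
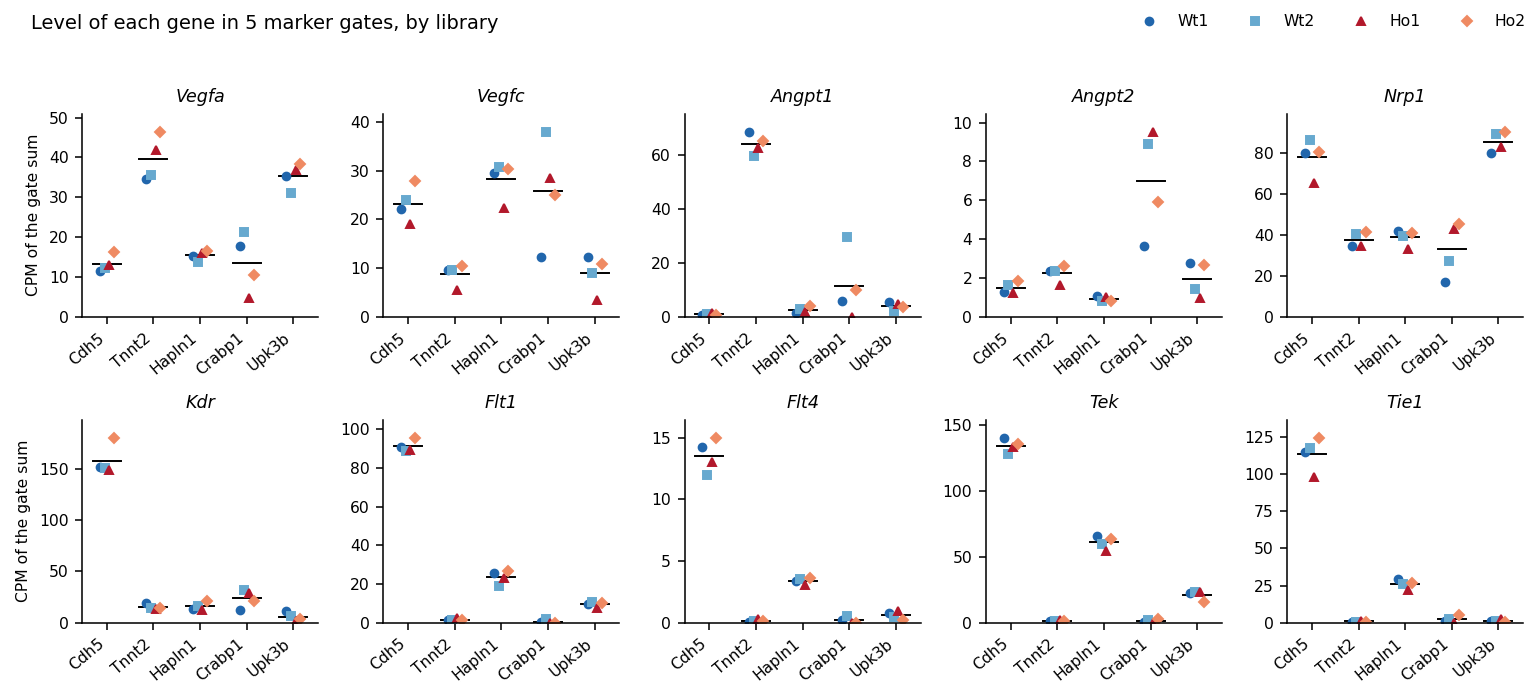
Level of each of the 10 genes (y axis, CPM of the gate sum, starting at 0) in 5 marker gates (x axis), with 1 point for each of the 4 libraries and a bar at their mean. Angpt1 is at 59.6 to 68.4 CPM in the Tnnt2 gate and at 0.529 to 1.54 CPM in the Cdh5 gate, whereas Kdr, Flt1, Flt4, Tek and Tie1 are highest in the Cdh5 gate in all 4 libraries.

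All receptors but Nrp1 were highest in the endothelium. Kdr was at 152, 151, 149 and 180 CPM in the Cdh5 gate of Wt1, Wt2, Ho1 and Ho2 (mean 158 ± 14.7, SD, n = 4). Tek was at 140, 128, 133 and 136 CPM there, Tie1 at 115, 117, 97.9 and 124 CPM and Flt1 at 91.1, 89.1, 89.4 and 95.4 CPM. Flt4, the VEGF-C receptor, was far lower at 14.3, 12.0, 13.0 and 15.0 CPM. In means the order was Kdr, Tek, Tie1, Flt1, Nrp1 and Flt4, and the assay counts each molecule once whatever its length. Kdr exceeded Tek and Tek exceeded Tie1 in every library. Nrp1, at 79.7, 86.0, 65.3 and 80.2 CPM, lay below Flt1 in every library. No neighbours in this order overlapped in their values over the 4 libraries.

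In the Tnnt2 gate 4 of the receptors were near the level of the endothelial markers. Tie1 was at 0.580 to 1.31 CPM, Tek at 0.939 to 2.28 CPM, Flt1 at 1.13 to 2.28 CPM and Flt4 at 0.0494 to 0.280 CPM, and in all 4 genes the highest value was that of Ho1. Expressed as a percent of the Cdh5-gate level, Tie1, Tek and Flt1 were at 0.777%, 1.04% and 1.65% on average. The 7 endothelial markers ranged from 0.410% to 5.20%, the highest being Egfl7, with a median of 0.948%. These receptor levels are not told apart from those of endothelial transcripts in the gate, and the part of background in them was not tested. The sum of the 7 markers in the same gate, given above, was highest in Wt2 and not in Ho1, and the markers differed in order. Pecam1, at 1.14, 1.25, 2.02 and 1.06 CPM, was highest in Ho1, as were Plvap and Esam, whereas Egfl7 (33.2, 32.5, 31.1 and 31.9 CPM) and Cldn5 were highest in Wt1 and Emcn and Ecscr in Wt2. Kdr was at 19.0, 14.0, 13.4 and 14.3 CPM in the Tnnt2 gate, 9.67% ± 1.96 (SD, n = 4) of its endothelial level and above the range of the markers. It remained at 9.44% when cells with a Pecam1 or Cdh5 UMI were left out.

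With 37.9% of 13812 genes called higher in the Cdh5 than in the Tnnt2 gate and 75.7% called in either direction, 7 of the 10 genes were called higher and 3 lower. The log2 differences of the receptors were 6.77 for Tie1, 6.30 for Tek, 6.15 for Flt4, 5.68 for Flt1, 3.22 for Kdr and 0.87 for Nrp1, and the lower genes were the ligands Vegfa, Angpt1 and Angpt2. The median of the 10 genes was 2.25, and that of all genes tested 0.01. Against the Crabp1 gate 6 genes, all of them receptors, were called higher and Angpt1 and Angpt2 lower, where 28.7% of all genes were called higher and 53.0% in either direction.

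**Figure D2:**
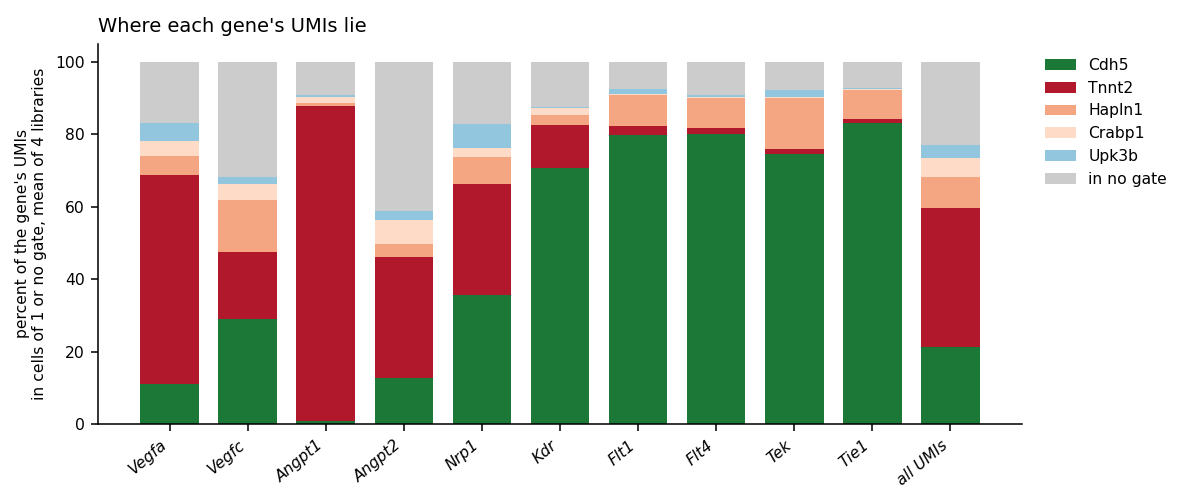
Percent of the UMIs of each gene (y axis, mean of 4 libraries) that lay in cells of each gate or of none, with the same division of all UMIs as the last bar on the x axis. The Cdh5 gate holds 70.7% of Kdr UMIs and 83.1% of Tie1 UMIs, and the Tnnt2 gate holds 87.0% of Angpt1 UMIs. Of Nrp1 UMIs the Cdh5 gate holds 35.5% and the Tnnt2 gate 30.8%, against 21.4% and 38.2% of all UMIs.

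Vegfa and Angpt1 were also called higher in the Tnnt2 gate than in the other gates, for Vegfa by little against the Upk3b gate. Vegfa was higher in the Tnnt2 gate than in the Hapln1 and Crabp1 gates by log2 differences of 1.64 and 1.41, and Angpt1 by 5.03 and 3.00. Against the Upk3b gate Vegfa was higher by only 0.36 ± 0.11 (SE; edgeR, adjusted p = 0.00801), a call lost without Wt2 (0.33), and in Wt1 its level was the other way round, at 34.5 CPM in the Tnnt2 and 35.2 CPM in the Upk3b gate. The mean levels, 39.6 and 35.3 CPM, lay closer together than the fitted difference. Angpt1 was higher than in the Upk3b gate by 4.29. In all, 3 of the 10 genes were called higher and 5 lower in the Tnnt2 than in the Hapln1 gate, where 70.8% of all genes were called and 35.2% were higher. Against the Crabp1 gate 4 were higher and 2 lower (61.6% of all genes called, 33.0% higher), and against the Upk3b gate 3 were higher and 4 lower (61.5% called, 32.2% higher). In the last comparison the call of Flt4, at -1.53, was lost without Wt1, Wt2 or Ho2 (-1.24, -1.48 and -1.72). Flt4 had 1, 5, 16 and 4 UMIs in the Tnnt2 gate of Wt1, Wt2, Ho1 and Ho2. In the Upk3b gate it had 2, 2, 3 and 1, so this call rests on very few.

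NRP1 differed from the other receptors in its spread over cell types. Nrp1 was at 79.9, 89.2, 82.7 and 90.0 CPM in the Upk3b gate, and the log2 difference between the Cdh5 and Upk3b gates was -0.12 (95% confidence interval -0.36 to 0.12; edgeR, adjusted p = 0.411). In the Tnnt2 gate it was at 34.5, 40.2, 34.4 and 41.4 CPM and in the Hapln1 gate at 41.9, 39.5, 33.2 and 40.8 CPM, each lower than every Cdh5-gate value. The Cdh5 gate held 35.5% of its UMIs and the Tnnt2 gate 30.8%, where these gates held 21.4% and 38.2% of all UMIs. Of Upk3b-gate cells thinned to 2000 UMIs, 15.3% ± 1.68 (SD, n = 4) had an Nrp1 UMI (73.0% unthinned), and no gate lacked the gene. In the comparison of the Cdh5 with the Upk3b gate, where 26.7% of all genes were called higher and 51.2% in either direction, 6 of the 10 genes were higher and 2, Vegfa and Angpt1, were lower.

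In the cushion gate Tek and Nrp1, as a percent of their Cdh5-gate levels, stood above the range of the endothelial markers, and the other 4 receptors did not. Against this gate, 7 of the 10 genes were called higher in the Cdh5 gate and none lower, where 22.0% of all genes were called higher and 40.7% in either direction. The median log2 difference of the 10 genes was 1.18, and that of all genes 0.02. Tek was at 65.9, 59.5, 54.5 and 63.7 CPM in the Hapln1 gate, 45.4% ± 2.93 (SD, n = 4) of its level in the Cdh5 gate (log2 difference 1.25 ± 0.12, SE; edgeR, adjusted p = 5.47e-08). Flt1 was at 25.9% of its Cdh5-gate level, Flt4 at 25.2%, Tie1 at 22.9% and Kdr at 9.89%, so that Kdr, the highest receptor in the endothelium, stood lower in the cushion gate than Tek, Flt1 and Tie1. For Kdr the values were 13.6, 16.0, 12.6 and 20.9 CPM, and all of them lay below those of Tek in the same library. The 7 endothelial markers ranged from 7.83% to 36.5%, with a median of 17.2%, and Flt1, Flt4, Tie1 and Kdr lay within this range and Tek above it, so that the levels of these 4 are not told apart from those of endothelial transcripts in the gate. Angpt2 was called higher in the Cdh5 gate by 0.74 (edgeR, adjusted p = 0.0375), a call lost without Wt2, Ho1 or Ho2, where the differences were 0.61, 0.91 and 0.58.

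Some cells of the cushion gate carried endothelial transcripts, and the shares were therefore taken again over Hapln1-gate cells without a Pecam1 or Cdh5 UMI, a choice made after seeing the data. The median of the endothelial markers fell to 3.29%, with a range of 0% to 23.7%, of which Pecam1 is at 0% by this choice. Tek was then at 29.1% ± 2.50 (SD, n = 4), with 32.7%, 27.4%, 27.5% and 28.9% in Wt1, Wt2, Ho1 and Ho2, above the highest of the markers, Egfl7. Flt1 was at 14.5%, Flt4 at 15.5%, Tie1 at 9.06% and Kdr at 3.66%, all within the range of the markers. Ptprb, the phosphatase that removes phosphate from TEK, stood at 116% of its Cdh5-gate level in the whole Hapln1 gate and at 94.7% without these cells. In single cells thinned to 2000 UMIs, 23.8% ± 1.90 of Cdh5-gate and 10.7% ± 1.84 of Hapln1-gate cells (SD, n = 4) had a Tek UMI (82.4% and 45.3% unthinned). In Tnnt2-gate cells the share was 0.139% to 0.589% thinned and 1.15% to 2.97% unthinned. A Kdr UMI was found in 24.2% ± 0.447 of thinned Cdh5-gate cells (SD, n = 4). Whether cells between endocardium and cushion add to these levels was not tested.

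**Figure D3:**
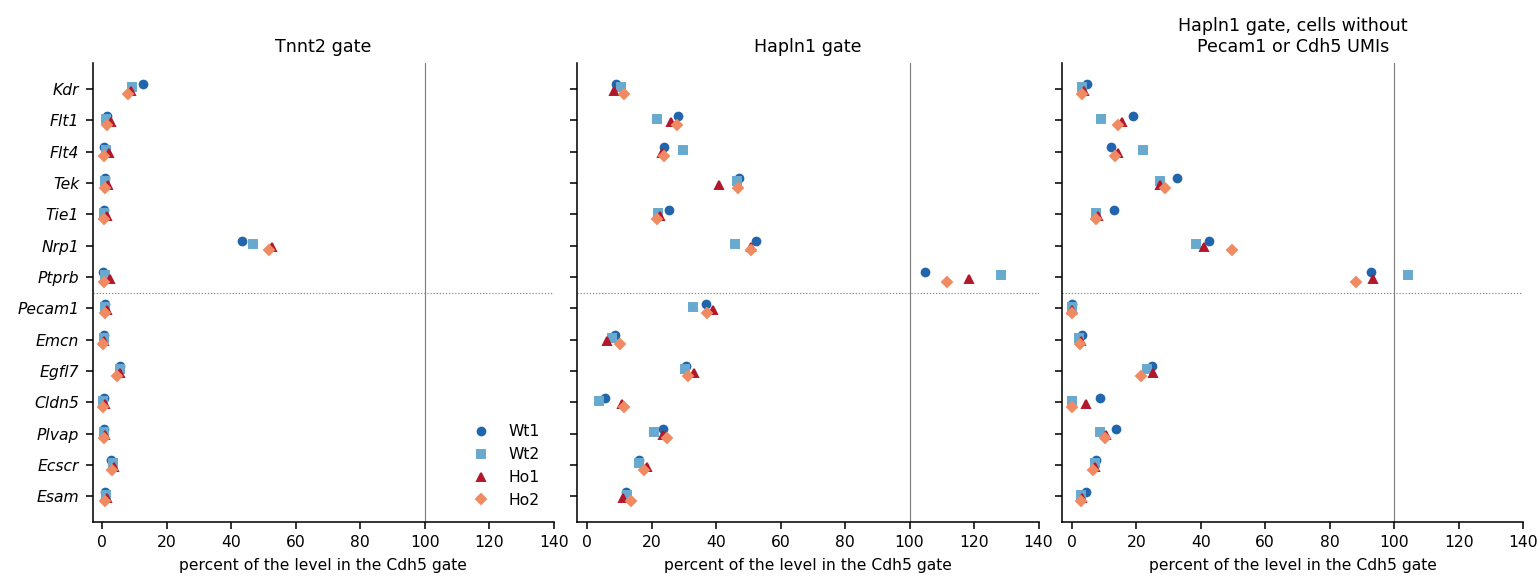
Level of 6 receptors, of Ptprb and, under the dotted line, of 7 endothelial markers in the Tnnt2 gate, the Hapln1 gate and Hapln1-gate cells without a Pecam1 or Cdh5 UMI, as a percent of the level in the Cdh5 gate of the same library (x axis), with 1 point for each library and a line at 100%. Tek keeps 45.4% and then 29.1% in the Hapln1 gate, while Kdr falls to 9.89% and then 3.66%, and Pecam1 is at 0 in the third panel by construction.

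The epicardial gate had a receptor pattern of its own beside Nrp1. Tek was at 22.6, 23.1, 23.3 and 16.0 CPM in it, 15.9% ± 2.85 (SD, n = 4) of the Cdh5-gate level, and Flt1 was at 9.50, 10.6, 7.67 and 10.2 CPM, 10.4% of it. Tie1 was at 0.792, 0.964, 2.56 and 0.410 CPM, 1.11% of its endothelial level, on 2, 4, 8 and 2 UMIs. The endothelial markers had a median of 1.18% in this gate and a range of 0.296% to 12.1%, which Tek exceeded and Flt1 did not. When cells with a Pecam1 or Cdh5 UMI were left out, Tek stayed at 15.5% and Flt1 at 9.99%. The median of the markers was then 1.29%. Egfl7, the highest marker with and without these cells, stayed at 12.2%.

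The Cdh5 gate was divided by 2 genes of the endocardium, Npr3 (the clearance receptor of natriuretic peptides) and Wnt4, into cells with a Wnt4 UMI (the Wnt4 sub-gate), cells with an Npr3 UMI but none of Wnt4 (the Npr3 sub-gate), and cells with neither. In the order Wt1, Wt2, Ho1 and Ho2, the Npr3 sub-gate held 368, 577, 563 and 326 cells, the Wnt4 sub-gate 463, 733, 901 and 466, and the cells with neither 184, 252, 199 and 160. The last were also the shallowest, with median depths of 11380 to 13619.5 UMIs. The 3 sub-gates came from the same libraries and were compared with the library as a block.

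Kdr was at 157, 147, 156 and 193 CPM in the Npr3 sub-gate and at 150, 163, 158 and 183 CPM in the Wnt4 sub-gate. In cells with neither it was at 149, 116, 65.5 and 135 CPM, with Ho1 lowest. Every library had more Kdr in both sub-gates than in cells with neither, though by little in Wt1. The log2 difference of the Npr3 sub-gate from cells with neither was 0.53 ± 0.12 (SE; edgeR, adjusted p = 0.00244) and that of the Wnt4 sub-gate 0.56 ± 0.12 (adjusted p = 0.00128). Without Ho1 these were 0.34 and 0.36 (adjusted p = 0.00277 and 0.000835), so the size rests in part on that library, where the cells with neither also held 2732 CPM of blood genes, against 118 to 190 CPM elsewhere, and 1246 CPM of the endothelial markers, against 2085 to 2228 CPM. Whether these account for the low value was not tested. Flt1 and Tek were also higher in the Wnt4 sub-gate than in cells with neither, by 0.40 ± 0.07 and 0.39 ± 0.05 (edgeR, adjusted p = 0.000195 and 1.80e-05).

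Vegfa was lower in both sub-gates than in cells with neither marker, and Nrp1 was lower in the Wnt4 sub-gate. Vegfa was at 19.0, 23.7, 13.8 and 28.3 CPM in cells with neither marker, at 10.7, 11.3, 12.0 and 14.2 CPM in the Npr3 sub-gate and at 10.1, 10.3, 13.5 and 14.4 CPM in the Wnt4 sub-gate. It was higher in cells with neither in every library, though in Ho1 by little. The log2 differences were -0.78 ± 0.15 for the Npr3 and -0.76 ± 0.15 for the Wnt4 sub-gate (edgeR, adjusted p = 0.000920 and 0.000635). Nrp1 was at 68.0, 76.2, 61.1 and 68.4 CPM in the Wnt4 sub-gate and at 93.1, 93.3, 71.6 and 88.1 CPM in the Npr3 sub-gate. The Wnt4 sub-gate was lower in each library, against the Npr3 sub-gate by -0.32 ± 0.05 and against cells with neither by -0.38 ± 0.07 (log2 difference ± SE; edgeR, adjusted p = 0.000600 and 0.000234). Tek was higher in the Wnt4 than in the Npr3 sub-gate by 0.21 ± 0.04 (edgeR, adjusted p = 0.00380), a call lost without Wt2 or Ho2, at 0.18 and 0.19. Tie1 and Flt4 were called in none of the 3 comparisons. The cells with neither marker held 461, 566, 700 and 548 CPM of the 6 cushion markers. The Npr3 sub-gate held 188 to 211 CPM and the Wnt4 sub-gate 251 to 312 CPM of them. The 6 markers of mesenchyme outside the heart tube were also highest in cells with neither in each library, at 62.0, 81.3, 44.5 and 73.4 CPM. The part of these markers in the differences between sub-gates was not tested.

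In counts, 3 of 9 genes tested were called higher and 1 lower in the Npr3 sub-gate than in cells with neither, where 24.4% of all genes were called and 12.1% were higher. In the Wnt4 sub-gate 3 were called higher and 2 lower (26.9% of all genes called, 13.8% higher). Between the Wnt4 and Npr3 sub-gates 1 was called higher and 1 lower (10.3% called, 6.86% higher). For the Npr3 sub-gate the call of Flt1, at 0.25, was lost without Ho1 or Ho2 (0.18 and 0.24), and that of Tek, at 0.18, without Wt1, Wt2 or Ho1 (0.16, 0.19 and 0.15).

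**Figure D4:**
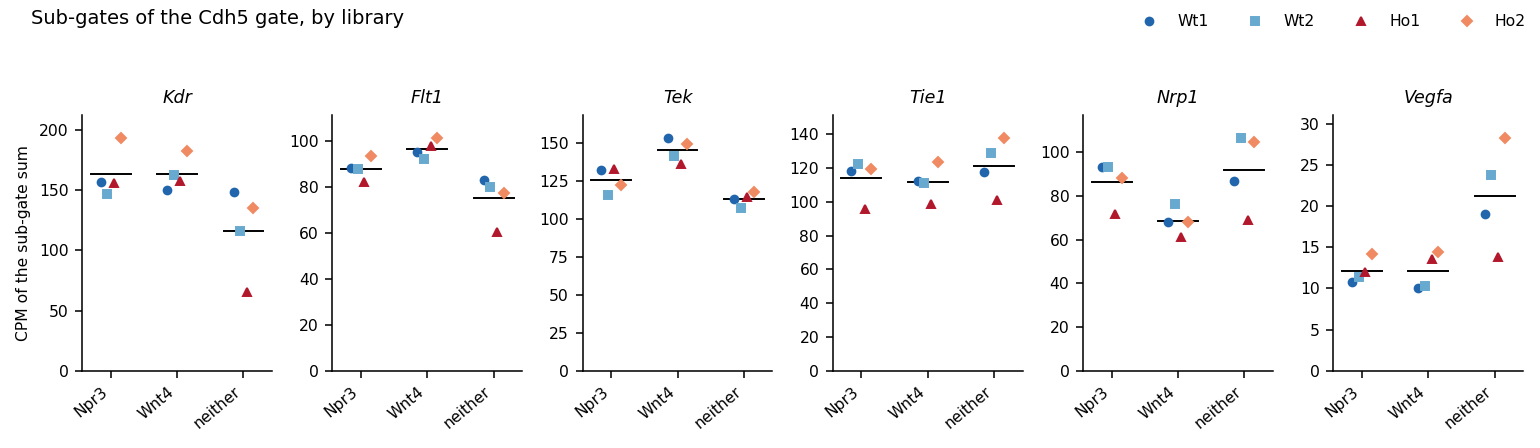
Levels (y axis, CPM of the sub-gate sum, starting at 0) of 6 genes in the Npr3 and Wnt4 sub-gates of the Cdh5 gate and in cells with neither UMI (x axis), with 1 point for each library and a bar at the mean of 4. Kdr in cells with neither is lowest in Ho1 at 65.5 CPM, Nrp1 is lowest in the Wnt4 sub-gate of each library, and Vegfa is highest in cells with neither.

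The comparison of mutant with wild-type libraries asked whether these genes differ with the homozygous Cyp51 variant. No member passed the threshold in any gate or sub-gate. In the Cdh5 gate 0 of 13457 genes were called by edgeR (0%), 721 had an unadjusted p-value under 0.05, and DESeq2 called 28. In the Tnnt2 gate 0 of 14602 genes were called (0%), 893 had an unadjusted p-value under 0.05, and DESeq2 called 20. Without Ho1 or Ho2 edgeR called 167 and 320 genes in the Cdh5 gate and 88 and 162 in the Tnnt2 gate. Wherever a Ho library was left out, the Ho group was 1 library that is assumed to vary like the Wt libraries, which alone gave the spread, so a call made there sets that library against Wt. The calls were 0% in the Npr3 sub-gate and the Crabp1 gate, 0.0485% in the Wnt4 sub-gate, 0.0100% in cells with neither, 0.0413% in the Hapln1 gate and 0.0378% in the Upk3b gate (0.0283% higher in Ho). With 2 libraries in each genotype the smallest two-sided p-value of an exact permutation is 0.333.

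Vegfa did not pass the threshold, but its libraries were ordered by genotype in most gates. Its level in each Ho library was higher than in either Wt library in the Cdh5, Tnnt2, Hapln1 and Upk3b gates, an order found for 12.4%, 17.8%, 15.6% and 11.7% of all genes tested there. It was also seen in the Npr3 and Wnt4 sub-gates (11.7% and 12.5% of all genes). Of the other genes, Flt1 had this order in the Tnnt2 gate and the Wnt4 sub-gate, Nrp1 in the Crabp1 gate (14.3% of all genes) and Tek in cells with neither marker (13.0%). The opposite order was found for no member in the Cdh5 gate (23.5% of all genes), the Tnnt2 gate (16.6%) or the Hapln1 gate (18.8%). It was found for Nrp1 in the Npr3 sub-gate (23.5%), Angpt2 in the Wnt4 sub-gate (21.7%), and Flt1 and Flt4 in cells with neither marker (21.1%). These gates come from the same 4 libraries and are not independent of each other. In the Upk3b gate the sum of the 7 cardiomyocyte markers, led by Myl7, had the same order as Vegfa, at 2740, 2348, 4028 and 2985 CPM, and its part in the Vegfa values was not tested. The sum of the 6 blood genes, led by Hbb-y, had this order at 88.7, 77.8, 416 and 114 CPM in the Cdh5 gate. It was 2.42, 5.54, 127 and 9.44 CPM in the Tnnt2 gate, 20.6, 51.7, 58.3 and 57.5 CPM in the Hapln1 gate and 2.37, 4.10, 8.62 and 4.92 CPM in the Upk3b gate. The Crabp1 gate and the Wnt4 sub-gate had this order of the blood genes too, and the Npr3 sub-gate did not. The part of the blood genes in the Vegfa values was not tested. In the Tnnt2 gate the log2 fold change of Vegfa was 0.32 ± 0.08 (SE, 95% confidence interval 0.13 to 0.50, unadjusted p = 0.00367 and adjusted p = 0.520 by edgeR), and it lay between 0.30 and 0.37 over 18 alternatives. In the Cdh5 gate Vegfa differed by 0.32 ± 0.13 (edgeR, adjusted p = 0.895), with a range of 0.17 to 0.45 over 18 alternatives. The lowest value there was that of thinned cells, and it was 0.19 without Ho2, whose 16.2 CPM stood above the 13.1 CPM of Ho1, and 0.45 without Ho1. In its Wnt4 sub-gate Vegfa differed by 0.49 ± 0.14 (edgeR, adjusted p = 0.702). The differences in the Hapln1 and Upk3b gates were 0.18 and 0.23 (edgeR, adjusted p = 0.951 and 0.991), and over the alternatives they ranged from 0.05 with looser gates to 0.32 with stricter gates in the first and from -0.52 to 0.34 in the second. In the Crabp1 gate the order was the opposite, as for 15.9% of all genes, with 17.8, 21.2, 4.75 and 10.48 CPM in Wt1, Wt2, Ho1 and Ho2 (log2 fold change -1.06 ± 0.45; edgeR, adjusted p = 1.00), with a range of -2.11 to -0.59 over 15 alternatives, and the value of Ho1 is that of 1 UMI. The difference of the Vegfa effect between the Cdh5 and Tnnt2 gates was 0.01 (95% confidence interval -0.25 to 0.26).

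Hypoxia is a known inducer of Vegfa, and genes of that response were read beside it. In the Tnnt2 gate the sum of 12 genes of the response to low oxygen was 5075, 5299, 4965 and 4943 CPM in Wt1, Wt2, Ho1 and Ho2, with Ldha the most abundant. None of the 12 was called, and their median log2 fold change was 0.03, against 0.00 for all genes. The members differed: the glucose transporter gene Slc2a1 was at 147, 145, 156 and 174 CPM and the kinase gene Pdk1 at 41.7, 38.9, 42.0 and 45.8 CPM. Both of these and Ero1l were higher in each Ho library than in either Wt library, like Vegfa, while Ldha and P4ha1 had the opposite order. In the Upk3b gate, where Vegfa also had this order, none of the 12 was called either, but 11 of them had a positive log2 fold change, with a median of 0.17 against 0.00 for all genes, and their sum was 2999, 2958, 3271 and 3114 CPM, higher in both Ho libraries. In the Cdh5 and Hapln1 gates 6 of the 12 were positive, with medians of -0.02 in each. These genes were singled out after their values were seen, and the part of low oxygen in the Vegfa values was not tested. In the Tnnt2 gate the sum of 9 genes that respond to dissociation was 1130, 1143, 1093 and 1439 CPM, highest in Ho2, which also had the highest Vegfa. None of the 9 was called in any gate, but 8 of them had a positive log2 fold change in the Tnnt2 gate (median 0.06), the Hapln1 gate (median 0.17) and the Upk3b gate (median 0.60). In the Hapln1 gate, where Vegfa was also higher in both Ho libraries, their sum was 867, 837, 943 and 974 CPM, higher in both Ho libraries too. In the Cdh5 gate 4 of the 9 were positive (median -0.05), and the part of dissociation in the Vegfa values was not tested.

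Among the receptors none of the differences in the Cdh5 gate was called. They were 0.15 ± 0.09 for Kdr, 0.13 ± 0.14 for Flt4, 0.07 ± 0.07 for Flt1, 0.04 ± 0.08 for Tek, -0.03 ± 0.10 for Tie1 and -0.16 ± 0.10 for Nrp1 (log2 fold change ± SE; edgeR, adjusted p from 0.895 to 0.979). Their 95% confidence intervals, which reach 0.45 for Flt4, 0.36 for Kdr and -0.39 for Nrp1 at the ends farthest from 0, give the sizes that these libraries cannot tell from no change. Flt4, the lowest of the receptors, ranged from -0.44 to 0.28 over 18 alternatives. Angpt1 in the Tnnt2 gate differed by -0.01 (95% confidence interval -0.21 to 0.20). Over the 10 genes in the Cdh5 gate the median log2 fold change was 0.06, and over all genes it was 0.00.

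In the epicardial gate Kdr was at 11.5, 6.27, 1.92 and 3.28 CPM, from 29, 26, 6 and 16 UMIs, so that the Ho values were the lowest 2, as for 21.5% of all genes there. The log2 fold change was -1.60 ± 0.43 (SE; edgeR, unadjusted p = 0.00305, adjusted p = 0.632), and among the alternatives run it was called only with no filter on low counts (adjusted p = 0.00608). Flt1 and Tek, with the epicardial values given above, had overlapping groups. In the same gate the sum of the dissociation genes was 569, 879, 874 and 1133 CPM, and several marker sums were ordered by genotype. The 3 endocardial markers, of which Tmem108 was the most abundant, were at 300.0, 281, 234 and 241 CPM, lower in both Ho libraries like Kdr. So were the 6 cushion markers, at 384, 336, 317 and 262 CPM, and the 6 markers of mesenchyme outside the heart tube, at 180, 186, 130 and 173 CPM. The 7 cardiomyocyte markers, at 2740, 2348, 4028 and 2985 CPM, and the 6 blood genes, at 2.37, 4.10, 8.62 and 4.92 CPM, were higher in both. The endothelial markers, at 98.1, 108, 103 and 94.3 CPM, overlapped. The part of any of these in the Kdr values was not tested. The difference of the Kdr effect between the Cdh5 and Tnnt2 gates was 0.38 ± 0.13 (edgeR, adjusted p = 0.957), and it was called with Ho2 as the only Ho library (0.48, adjusted p = 0.0101) and with no filter on low counts (adjusted p = 0.0232).

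Several other differences moved when 1 library was left out. In cells with neither sub-gate marker Kdr differed by -0.37 ± 0.27 (SE; edgeR, adjusted p = 0.970), but by 0.06 without Ho1 and by -0.96 without Ho2, where only Ho1 stood against the Wt libraries and their spread (adjusted p = 0.000161). In the Npr3 sub-gate Kdr differed by 0.24 ± 0.11 (adjusted p = 0.904) and by 0.37 without Ho1 (adjusted p = 0.0148). Vegfc in the Tnnt2 gate differed by -0.29 ± 0.22 (edgeR, adjusted p = 0.844), by 0.06 without Ho1 and by -0.73 with Ho1 as the only Ho library (adjusted p = 0.0159). In the same gate 6 markers of mesenchyme outside the heart tube, led by Isl1, were at 75.5, 51.2, 35.6 and 73.3 CPM, lowest in Ho1 like Vegfc. Also lowest in Ho1 were the 5 epithelial markers (105, 85.5, 74.1 and 110 CPM) and the 3 endocardial markers (66.7, 61.7, 54.7 and 67.2 CPM). So were the 5 epicardial markers (31.8, 27.0, 25.5 and 48.9 CPM). The 6 blood genes, led by Hbb-y, were highest in Ho1, at 2.42, 5.54, 127 and 9.44 CPM. The part of any of these in the Vegfc values was not tested. Flt4 in cells with neither marker differed by -0.81 ± 0.35 (edgeR, adjusted p = 0.970), by -0.43 without Ho1 and by -1.28 without Ho2, the ends of its range over 17 alternatives. The blood genes (2732 CPM) and endothelial markers (1246 CPM) that set Ho1 apart in these cells, as given above, move with the values of both Kdr and Flt4, and their part was not tested. Nrp1 in the Crabp1 gate differed by 1.05 ± 0.36 (edgeR, adjusted p = 1.00) and ranged from 0.80 to 1.64 over 17 alternatives. The difference of the effect between the Cdh5 and Tnnt2 gates was 0.37 for Vegfc, -0.59 for Flt1, -0.61 for Tek and -0.44 for Tie1, none of them called (edgeR, adjusted p = 0.957 for each). With Ho1 as the only Ho library the last 3 were -0.98, -1.03 and -1.05, again on the spread of the Wt libraries alone. The Tnnt2-gate levels behind them lay within the range of the endothelial markers, as given above.

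**Figure D5:**
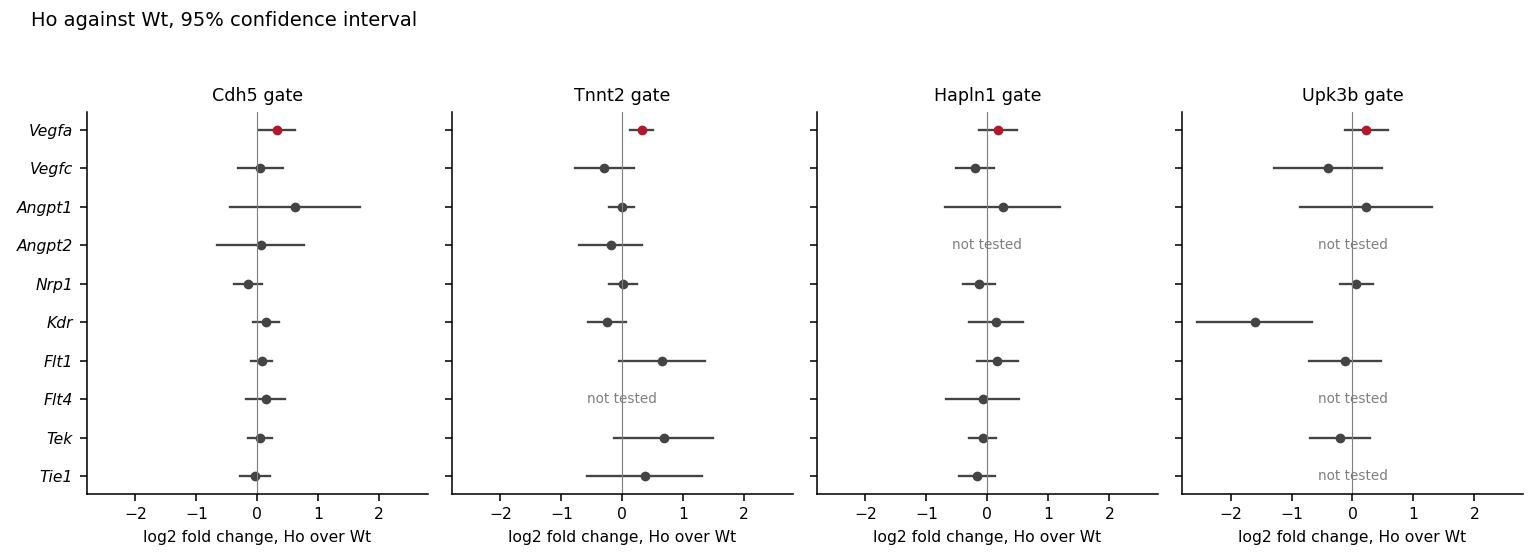
Fitted log2 fold change of Ho over Wt (x axis) for the 10 genes (y axis) in 4 gates, with 95% confidence intervals from edgeR, and Vegfa in red. The Vegfa points are above 0 in all 4 gates, from 0.18 to 0.32, and no gene passed the threshold on adjusted p-values, including Kdr at -1.60 in the Upk3b gate.

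Of 31 other genes of the pathway, 28 were tested between the gates, and Sh2d2a, Esm1 and Apln were too low. In the Cdh5 gate 15 were higher and 9 lower than in the Tnnt2 gate, where 75.7% of all genes were called and 37.9% were higher. Against the Hapln1 gate 13 were higher and 5 lower (40.7% of all genes called, 22.0% higher), against the Crabp1 gate 13 were higher and 8 lower (53.0% called, 28.7% higher), and against the Upk3b gate 13 were higher and 10 lower (51.2% called, 26.7% higher). In Ho against Wt libraries none was called in any gate or sub-gate. Among the ligands, Vegfb, which binds FLT1, was at 174 ± 16.3 CPM in the Tnnt2 gate and at 42.0 ± 4.03 CPM in the Cdh5 gate (SD, n = 4; log2 difference -2.22 ± 0.08, edgeR, adjusted p = 9.53e-16). It followed the same direction as Vegfa at a higher level. Pgf, another ligand of FLT1, was at 10.6 ± 1.68 CPM in the Wnt4 sub-gate and at 3.26 ± 0.412 CPM in the Npr3 sub-gate (SD, n = 4; log2 difference 1.66 ± 0.18, edgeR, adjusted p = 3.97e-06). Vegfd was at most 1.08 CPM on average in the 5 gates. Angpt4 averaged 3.51 ± 2.11 CPM (SD, n = 4) in the Upk3b gate and at most 2.00 CPM in the other gates.

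Of the co-receptors and the genes that process VEGF-C, Nrp2 was highest on average in the Crabp1 gate, at 41.8 ± 17.6 CPM, and in the Upk3b gate, at 32.8 ± 8.19 CPM (SD, n = 4). Ccbe1, needed for the cleavage of VEGF-C, was at 7.97 ± 0.860 CPM (SD, n = 4) in the Upk3b gate and at 0 UMIs in the Hapln1 gate of all 4 libraries. Svep1 was at 4.31 ± 0.345 CPM in the Upk3b gate and at 0.377 ± 0.120 CPM in the Cdh5 gate (SD, n = 4), and the protease gene Adamts3 at most 2.57 CPM on average in any gate. Ptprb was at 55.7 ± 6.47 CPM in the Cdh5 gate and at 64.1 ± 3.18 CPM in the Hapln1 gate (SD, n = 4; log2 difference -0.10, edgeR, adjusted p = 0.581), and at 0.563 CPM in the Tnnt2 gate.

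Among endothelial targets, the Notch ligand Dll4 was at 18.4 ± 1.43 CPM in the Cdh5 gate and at 0.205 ± 0.130 CPM in the Tnnt2 gate (SD, n = 4). The apelin receptor Aplnr was highest on average in Cdh5-gate cells with neither sub-gate marker, but it spread from 55.5 CPM in Wt1 to 0.748 CPM in Ho1. It was lower in the Wnt4 sub-gate by a log2 difference of -2.97 ± 0.40 (edgeR, adjusted p = 1.62e-05), as was Pdgfb, a recruiter of pericytes, by -1.69 ± 0.21 (adjusted p = 7.08e-06). Robo4, an endothelial guidance receptor, was at 2.49 ± 0.750 CPM (SD, n = 4) in the Cdh5 gate and at 0 UMIs in the Upk3b gate. The adaptor gene Shb was higher in the Tnnt2 than in the Crabp1 gate by 2.48 ± 0.15 (edgeR, adjusted p = 3.78e-11). Nos3, the endothelial nitric oxide synthase, was higher in the Wnt4 than in the Npr3 sub-gate by 0.52 ± 0.07 (edgeR, adjusted p = 3.31e-05). Of the genes of oxygen-regulated transcription factors, Hif1a was at 139 ± 6.24 CPM in the Tnnt2 and 55.1 ± 4.87 CPM in the Cdh5 gate, and Epas1 at 1.76 ± 0.393 and 25.7 ± 2.45 CPM (SD, n = 4), so the order of the gates was opposite for these factors.

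Genes with the most similar levels were sought over 28 points, the 7 gates and sub-gates that share no cell in each of 4 libraries, among 7708 genes with a mean of at least 10 CPM. Points of 1 library share its depth and its cells' quality, and the correlations are a description. Flt1 and Tek were each other's nearest gene (r = 0.978). Tie1 was closest to Ccm2l, Sox18 and Procr (r = 0.992, 0.991 and 0.990) and Flt4 to Esam, Adgrf5 and Plxnd1 (r = 0.986, 0.986 and 0.983). Kdr was closest to Car8 (r = 0.937), Nrp1 to Tfpi (r = 0.896), Vegfa to Habp4 (r = 0.898), Vegfc to Mecom (r = 0.934), Angpt1 to Coprs (r = 0.951) and Angpt2 to Hip1 (r = 0.869).

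The genes lie on 6 chromosomes of GRCm38. Kdr (chr5:75932827-75978458, minus strand) and Flt1 (chr5:147561604-147726011, minus strand) share chromosome 5, and Tek (chr4:94739289-94874976, plus strand) and Tie1 (chr4:118471191-118490061, minus strand) share chromosome 4. Vegfc, Nrp1 and Angpt2 lie on chromosome 8, Flt4 on 11, Angpt1 on 15 and Vegfa on 17 (chr17:46016993-46032369, minus strand). Angpt2 overlaps Mcph1 and Angpt1 overlaps Gm17473 on the other strand, and Nrp1 overlaps Mir1903 on its own strand. A 3′ count of molecules does not tell the isoforms of Vegfa, or soluble from membrane Flt1, apart.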

How the data were processed

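RNA of 4 libraries (Wt1, Wt2, Ho1 and Ho2) was captured with 10x 3′ chemistry, and the authors deposited filtered matrices of UMI counts, made with Cell Ranger 6.1.1 on mm10 (the submitters' processing notes also name Seurat 4.1.0). The deposited counts are not normalized, and the files held 109893733, 117034633, 127018819 and 107377100 UMIs in 10320, 8212, 7999 and 7058 barcodes. Barcodes outside 500 to 50000 UMIs or 500 to 6000 genes, or with over 20% of their UMIs from mitochondrial genes, were dropped, and cells with the highest Scrublet scores (scanpy 1.11.5; 0.8% per 1000 cells of a library) were removed as doublets (746, 465, 441 and 334).

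Gates were set at 2 UMIs of Cdh5 or Upk3b, 10 UMIs of Tnnt2 per 10000, 5 of Hapln1 or Crabp1 per 10000, and 1 UMI of Npr3 or Wnt4 for the sub-gates. UMIs were summed per gate and library and tested with edgeR 4.0.16 (R 4.3.3; TMM, filterByExpr, quasi-likelihood test) with Benjamini-Hochberg adjustment over all genes tested, at a threshold of 0.05. Gates were compared with the library as a block, and Ho with Wt without one. Comparisons that share a gate share its values. Standard errors are the absolute log2 fold change over the square root of F, and confidence intervals are at 95%. An interval or a limit from 0 counts (3 counts of the total) covers counting error only, and fewer cells and less RNA per cell cannot be told apart in the shares of UMIs by gate. The deposited gene identifiers matched GENCODE M21 (GRCm38) in 99.61% of cases, which gave the positions.

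The 10 genes are named throughout. Of 31 other pathway genes, the text names ligands, co-receptors and targets that passed the filter and the 3 with the largest called difference in each comparison, and for each of the 10 genes those with the highest Pearson r of log2(CPM + 1). The oxygen factors, Nos3 and single genes of the low-oxygen list were named after their values were seen. The members and lists were chosen with earlier results of these data known. Alternatives were DESeq2 1.42.0, another normalization, other filters on low counts, a replicate block, each library left out, other gates and limits on cells, doublets kept, thinned cells, and, chosen after seeing the data, the crossed block and gates without globin-rich or endothelial cells.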

Additional observations from a re-analysis of the deposited data

How the results depend on the processing

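Of 1046 values of the 10 genes between gates under other settings, 1005 kept direction and call, 39 lost the call and 2 turned: with cells thinned to 2000 UMIs, Flt4 between the Tnnt2 and Upk3b gates was 2.29 and Flt1 between the Npr3 sub-gate and cells with neither marker -0.0468. For 26 chosen differences of Ho from Wt, mainly those given with a value above, 423 of 453 values stayed, 9 became calls and 21 turned, none of them called in the main setting. Differences outside the 26 also turned, such as that of Vegfa in cells with neither marker (-0.59 to 0.40). Those that turned among the 26, beside the ranges with 1 library left out below, were Flt4 in the Cdh5 gate thinned (-0.44), Vegfa in the Upk3b gate thinned (-0.52), its gate difference with 10 counts in every library (-0.00942), looser gates (-0.0580) and thinned (-0.20), Flt1 in the Cdh5 gate thinned (-0.0301), the Tie1 gate difference with looser gates (0.10) and Angpt1 in the Tnnt2 gate with looser gates (0.00494), doublets kept (0.0209) and thinned (0.0530). With 1 library left out, the ranges were -0.13 to 0.11 for the Vegfa gate difference, -1.03 to 0.0476 for that of Tek and -1.05 to 0.55 for that of Tie1. They were -0.96 to 0.0580 for Kdr in cells with neither marker, -0.73 to 0.0607 for Vegfc and -0.10 to 0.10 for Angpt1 in the Tnnt2 gate, and -0.0177 to 0.28 for Flt4, -0.0440 to 0.12 for Tek and -0.19 to 0.11 for Tie1 in the Cdh5 gate. The cause was not tested in any of these.

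Counts of called genes between Ho and Wt are given in the order Cdh5, Npr3, Wnt4, neither marker, Tnnt2, Hapln1, Crabp1 and Upk3b, where the values were 0, 0, 6, 1, 0, 5, 0 and 4. With no filter on low counts they were 252, 148, 161, 119, 209, 122, 90 and 121. DESeq2 called 28, 15, 13, 1, 20, 12, 0 and 8. Leaving out 1 library gave 0 to 320, 0 to 331, 49 to 139, 0 to 231, 2 to 162, 13 to 179, 0 to 128 and 24 to 64. Looser gates gave 1 for Npr3, 10 for Wnt4, 0 for neither marker and 3 for Hapln1. Stricter gates gave 0 for Wnt4, 0 for neither marker, 4 for Tnnt2, 8 for Hapln1 and 9 for Upk3b. With doublets kept the counts were 0 for Wnt4, 0 for neither marker and 2 for Hapln1, and with no upper limits on cells 0, 0 and 2, and 7 for Upk3b. Thinned cells gave 2 for Cdh5, 1 for Wnt4, 0 for neither marker, 31 for Tnnt2, 0 for Hapln1 and 2 for Upk3b. With 10 counts in every library the counts were 0 for neither marker and 2 for Hapln1, without globin-rich cells 2 for Hapln1, and without Pecam1 or Cdh5 UMIs 3 for Hapln1. For the difference of effects (0 calls) they were 146 with no filter, 1 with looser and 1 with stricter gates, 10 thinned and 0 to 251 with 1 library left out.

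The replicate numbers do not pair the samples by the labels, and same-numbered libraries did not deviate together (r from -0.200 to -0.00286). With 2 libraries a genotype, the crossed pairs have the same r with the opposite sign by construction (0.00286 to 0.200). With the replicate block the calls were 10 for Cdh5, 31 for Wnt4, 8 for Tnnt2, 147 for Hapln1 and 17 for Upk3b. With the crossed replicate block they were 52 for Cdh5, 62 for Npr3, 137 for Wnt4, 35 for neither marker, 39 for Tnnt2, 63 for Hapln1 and 134 for Crabp1. Without the library block between the sub-gates, 1712, 2034 and 409 genes were called in place of 2872 (Npr3 against neither), 3167 (Wnt4 against neither) and 1210 (Wnt4 against Npr3), DESeq2 called 723 in the last, and leaving out 1 library gave 1843 to 2596 in the first and 696 to 1141 in the last. Thinned cells gave 628, 744 and 348.

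Between gates, with 10 counts in every library and with thinned cells, the counts were 2437 and 6456 for Cdh5 against Tnnt2, 1438 and 2248 against Hapln1, 1833 and 3634 against Crabp1 and 1724 and 2655 against Upk3b. For Tnnt2 they were 2357 and 5759 against Hapln1, 2244 and 4784 against Crabp1 and 2220 and 3738 against Upk3b, fewer genes being tested. Shares of cells with a UMI at 5000 UMIs and without thinning were 45.8% and 71.8% for Kdr and 47.4% and 82.4% for Tek in the Cdh5 gate, 25.2% and 45.3% for Tek in the Hapln1 gate, 33.6% and 73.0% for Nrp1 in the Upk3b gate, 17.6% and 39.3% for Vegfa and 22.6% and 39.9% for Angpt1 in the Tnnt2 gate, and 0.577% and 1.59% for Angpt1 in the Cdh5 gate. Without Pecam1 or Cdh5 UMIs the Hapln1-gate levels were 29.1% of the Cdh5-gate level for Tek, 14.5% for Flt1, 9.06% for Tie1, 3.66% for Kdr, 15.5% for Flt4 and 43.0% for Nrp1. With 2 libraries a genotype and 20 cells of Ho1 in the Crabp1 gate, small differences could not be detected.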
